A study of Mus musculus with 6 samples.

Results

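The major urinary protein (Mup) genes of the mouse were described in livers from 3 male WT mice and 3 male Vps15LKO mice. Members were all genes whose GRCm38 symbol is Mup or Mup-ps followed by a number, which gave 49 of the 56305 genes in the count table, of which 22 are protein-coding and 27 are pseudogenes. The family was chosen because its transcript levels were among those with the largest falls in this same comparison, so the differences between genotypes are given for the members as a description, and their calls support nothing. All mice were 5 weeks old, fed ad libitum and sampled at ZT6, that is 6 h after lights on. Vps15LKO mice carry AlbCre+;Vps15 f/f, in which Cre recombines the gene of Vps15 (regulatory subunit of the class 3 PI3K). Cre is expressed under the albumin promoter and hence in hepatocytes. For fibroblasts the paper describes the loss of an exon and a truncated Vps15 that does not bind the lipid kinase Vps34. The labels give the control genotype as WT and no further. Polyadenylated RNA was sequenced with 1 library per liver, and between 16137093 and 18110223 reads fell on genes. Transcript levels are in counts that the authors normalized with DESeq2, where 1 read was worth 1.25 to 1.35 normalized counts in WT livers and 0.707 to 0.81 in Vps15LKO livers. Counts over the whole gene include the exons that are kept, so they do not measure the recombination. The transcript of the targeted gene (Pik3r4) stood at 514 ± 57.1 normalized counts in WT livers and 353 ± 11 in Vps15LKO livers (SD, n = 3), with a log2 fold change of -0.54 and an adjusted p of 0.00207 (limma), but 0.19 when scaled to the total reads of each library. That scaling moved the median of all genes by 0.72.

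Major urinary proteins are small secreted lipocalins, barrel-shaped carriers of hydrophobic ligands. Hepatocytes make most of them, above all in adult males, and they pass through the blood into the urine, where they bind volatile pheromones and some act as pheromones themselves. Transcription of many Mup genes is known to depend on the pulsatile male pattern of growth hormone, which signals through the growth hormone receptor, JAK2 and STAT5. The genes arose by repeated duplication, and near-identical coding copies alternate with pseudogenes in a single cluster.

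The cluster spanned chr4:59956804-62150863 (GRCm38), 2194 kb, and held 48 of the 49 members. The remaining member, Mup-ps22, is a processed pseudogene of 243 bp at chr11:55123695-55123937 on the plus strand. Translations of the coding members fell into 7 groups at 95% identity. The largest group, here called the central copies, held 16 genes (Mup1, Mup2, Mup7 to Mup19 and Mup22) whose proteins were 96.7 to 100% identical to each other and whose coding sequences were 98.2 to 99.8% identical. Mup3, Mup4, Mup5, Mup6, Mup20 and Mup21 each stood alone. The protein of Mup20, known as darcin and as a male pheromone, was 79.6 to 81.8% identical to those of the central copies. That of Mup3 was only 67.4 to 69% identical to them and was closest to Mup21, at 90.8%.

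The stretch of 120 bases below shows why single central copies are hard to count while Mup3, Mup20 and Mup-ps22 are easier. It is taken from the GENCODE M21 transcripts, 5′ to 3′, from the coding sequence of Mup11 and the aligned part of the others, and capitals mark the bases that differ from Mup11.
Mup11: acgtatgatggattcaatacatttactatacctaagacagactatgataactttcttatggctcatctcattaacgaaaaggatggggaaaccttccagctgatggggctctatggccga
Mup12: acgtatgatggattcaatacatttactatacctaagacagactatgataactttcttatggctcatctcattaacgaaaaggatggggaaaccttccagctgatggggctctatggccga
Mup7: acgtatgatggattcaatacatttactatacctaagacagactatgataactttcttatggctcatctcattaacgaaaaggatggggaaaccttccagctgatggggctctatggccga
Mup22: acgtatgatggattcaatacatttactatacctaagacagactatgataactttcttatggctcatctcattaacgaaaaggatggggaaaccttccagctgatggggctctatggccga
Mup20: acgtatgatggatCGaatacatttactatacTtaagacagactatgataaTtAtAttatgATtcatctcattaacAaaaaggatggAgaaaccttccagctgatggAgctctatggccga
Mup3: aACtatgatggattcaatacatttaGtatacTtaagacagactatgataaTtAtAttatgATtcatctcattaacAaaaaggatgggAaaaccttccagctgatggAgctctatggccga
Mup-ps22: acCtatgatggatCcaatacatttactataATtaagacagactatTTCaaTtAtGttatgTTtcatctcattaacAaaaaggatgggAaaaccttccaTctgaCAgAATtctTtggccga
Mup12, Mup7 and Mup22 had 0 differences from Mup11 in this stretch, Mup20 had 11, Mup3 had 12 and Mup-ps22 had 21. Over whole transcripts, between 0 and 44.3% of the 100-base words of a central copy (median 24.1%) occurred in no other GENCODE transcript. For Mup22 and Mup19 that share was 0%. It was 61.2% for Mup20, 97.8% for Mup3, 95.5% for Mup21 and 100% for Mup4, Mup6 and Mup-ps22. Counts of single central copies are therefore uncertain, since the setting of the counting step for reads that map to several places is not stated, and the central copies are also given as a sum.

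Promoters are shown for Mup11, the most abundant central copy by counts, for Mup3, the most abundant gene of the family, and for Mup4, the least abundant coding gene. They run from 250 bases before to 50 bases after the RefSeq transcription start (GRCm38.p6), 5′ to 3′ on the gene's strand, with a TATA box in capitals.
Mup11 promoter, chr4:60662346-60662645, minus strand: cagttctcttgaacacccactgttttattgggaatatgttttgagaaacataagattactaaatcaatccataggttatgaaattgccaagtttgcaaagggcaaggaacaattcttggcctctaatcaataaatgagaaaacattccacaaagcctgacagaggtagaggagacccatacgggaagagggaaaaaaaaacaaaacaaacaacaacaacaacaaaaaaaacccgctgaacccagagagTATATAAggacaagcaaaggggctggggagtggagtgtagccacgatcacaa
Mup3 promoter, chr4:62087268-62087567, minus strand: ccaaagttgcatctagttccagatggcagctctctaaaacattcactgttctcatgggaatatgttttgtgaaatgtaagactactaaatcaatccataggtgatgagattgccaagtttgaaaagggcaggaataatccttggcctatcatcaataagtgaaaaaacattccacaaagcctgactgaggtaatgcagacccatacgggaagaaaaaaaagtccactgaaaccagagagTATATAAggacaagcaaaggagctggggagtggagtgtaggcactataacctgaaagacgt
Mup4 promoter, chr4:59960618-59960917, minus strand: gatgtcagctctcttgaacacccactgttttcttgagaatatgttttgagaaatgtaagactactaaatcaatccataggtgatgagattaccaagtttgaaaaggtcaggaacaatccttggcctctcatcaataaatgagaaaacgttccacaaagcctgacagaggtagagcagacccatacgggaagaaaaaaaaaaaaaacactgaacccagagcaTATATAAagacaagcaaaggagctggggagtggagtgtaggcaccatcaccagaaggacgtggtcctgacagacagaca
Of the 22 coding members, 14 had a RefSeq promoter, and Mup1, Mup5, Mup8, Mup12, Mup13, Mup16, Mup20 and Mup22 had no entry. Aligned windows of 10 central copies were 89.9 to 99% identical over 45 pairs, whereas those of central copies and the other 4 genes were 73.7 to 88.6% identical over 40 pairs. Annotated starts differed between copies, so the windows are shifted against each other. The TATA box, searched on both strands as TATANAA after the windows had been seen, was present in 13 of the 14 windows and in 11.8% of all 27025 RefSeq promoter windows of 300 bases. It was not found in the Mup7 window. The STAT5 motif TTCNNNGAA was found in 0 of the 14 windows and in 8.47% of all windows, the E-box CACGTG in 0 and in 7.24%, and the C/EBP motif TTGCNNAA in 0 and in 10.8%. These letters were absent from these windows only, and more distant sequence was not searched.

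In WT livers the family was among the abundant transcripts of the liver. Its 49 members together held 238481, 256049 and 320959 reads in WT livers 1 to 3, which was 1.58 ± 0.355% of all reads on genes (SD, n = 3). In Vps15LKO livers they held 1385, 4101 and 674 reads, or 0.0114 ± 0.00998%. Each WT liver thus held more Mup reads than any Vps15LKO liver. In normalized counts the sum was 356233 ± 66208 in WT and 1619 ± 1504 in Vps15LKO livers, a log2 ratio of -7.78 that corresponds to a 220.0-fold lower level. Liver 2 supplied most of the Vps15LKO reads, and without it the log2 ratio was -8.86. Scaled to the total reads of each library in place of the size factors, the sum was 139-fold lower. Fewer hepatocytes and less of a transcript per hepatocyte cannot be told apart in RNA from whole liver.

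**Figure D1:**
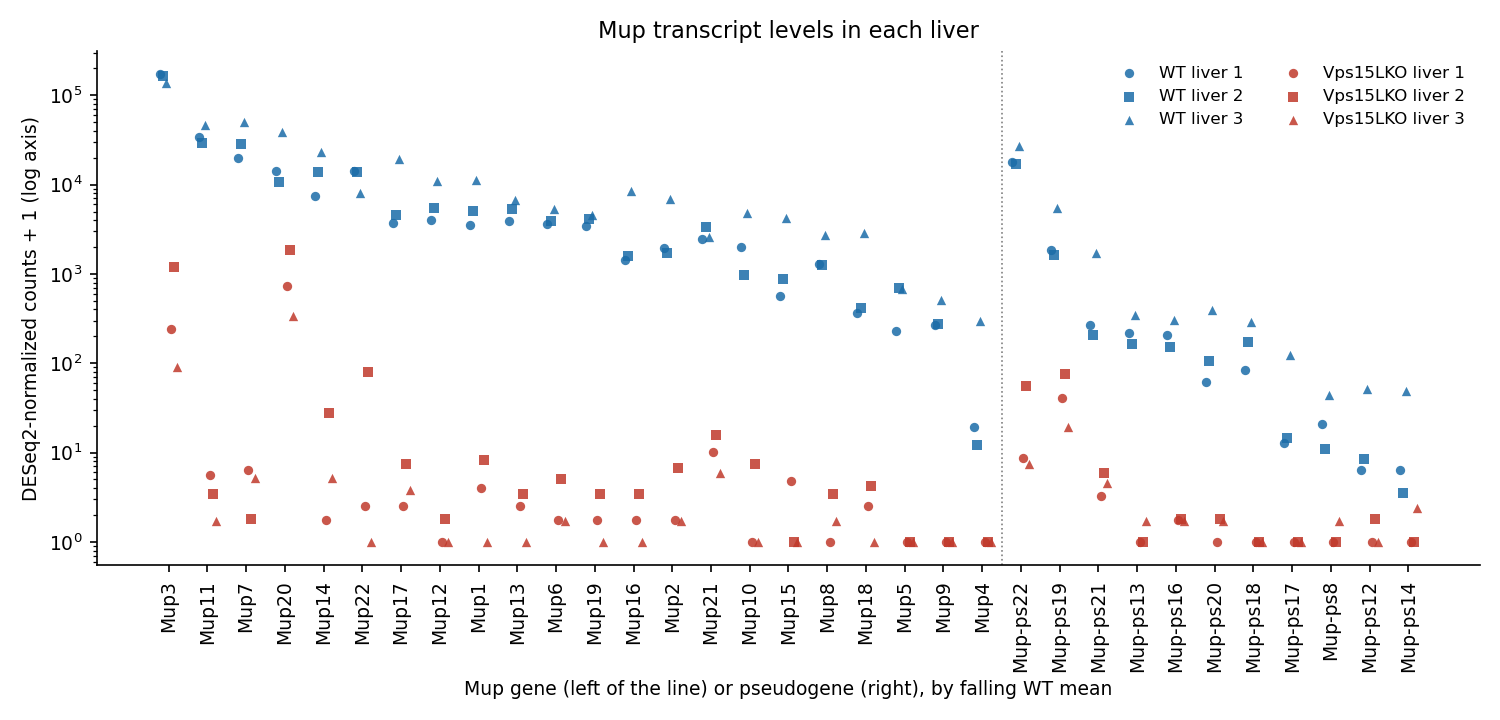
Normalized counts plus 1 on a log axis for the 22 coding Mup genes (left of the dotted line) and the 11 pseudogenes with at least 20 normalized counts in a WT liver (right), with 1 point per liver. WT values (blue) lie above Vps15LKO values (red) in every column, and only Mup3 and Mup20 keep all Vps15LKO livers above 50 normalized counts.

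Mup3, which stands apart from the central copies in sequence, was the most abundant member. It had 172643, 163914 and 138501 normalized counts in WT livers and 242, 1181 and 90.5 in Vps15LKO livers. WT livers lay close together (158353 ± 17737, SD, n = 3), the Vps15LKO livers spread over more than 10-fold, and the groups did not overlap. The ratio of the group means was 314 (95% Poisson interval 299.97 to 328, which covers only the counting error of the Vps15LKO reads). It was 952 without Vps15LKO liver 2. Per kb of exon, Mup3 had 148270 ± 16608 normalized counts in WT livers. Its WT values lay above every value of the next coding gene, Mup7, at 31841 ± 15108. Below Mup7 each coding gene in the order of WT levels per kb overlapped the next over the 3 livers, down to Mup9 at 233 ± 91.4 and Mup4 at 119 ± 178.

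Mup20, or darcin, was the member with the smallest difference between genotypes among those tested. It had 14120, 10639 and 38506 normalized counts in WT livers and 729, 1839 and 333 in Vps15LKO livers. The groups did not overlap, and the WT mean was 21.8 times the Vps15LKO mean (95% Poisson interval 21.1 to 22.5). This ratio was 12.8 without WT liver 3 and 39.7 without Vps15LKO liver 2. Mup20 and Mup3 changed places between genotypes. In WT livers the level of Mup20 per kb was 0.0941, 0.0747 and 0.32 times that of Mup3, whereas in Vps15LKO livers it was 3.46, 1.79 and 4.23 times that of Mup3. Mup20 thus made up 4.47, 3.33 and 8.9% of the Mup reads in the WT livers. In Vps15LKO livers 1 to 3 it made up 68.9% (exact binomial 95% interval 66.4 to 71.3), 55.3% (53.8 to 56.9) and 69.9% (66.3 to 73.3), intervals that cover counting error only.

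**Figure D2:**
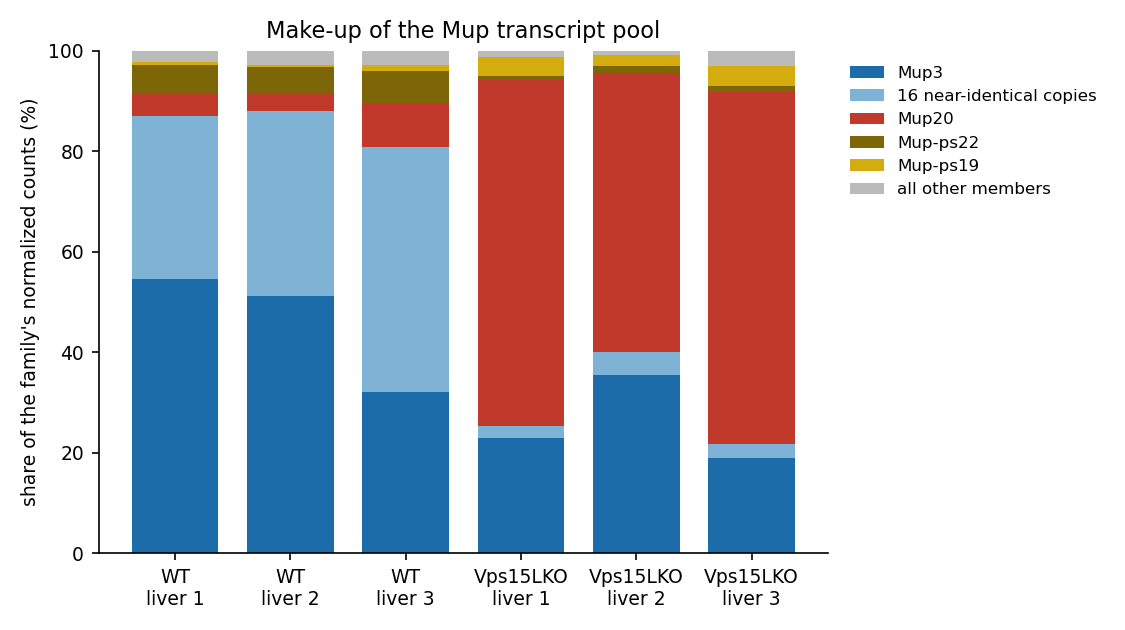
Share of the family's normalized counts (%) in each liver held by Mup3, the 16 near-identical central copies summed, Mup20, Mup-ps22, Mup-ps19 and all other members. Mup3 and the central copies fill most of each WT bar, and Mup20 fills 55.3 to 69.9% of each Vps15LKO bar.

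The central copies summed to 102370, 117621 and 210900 normalized counts in WT livers, from 77205 to 156453 reads. In Vps15LKO livers the sum was 25.96, 148 and 13.4 normalized counts, from 34, 183 and 19 reads. WT liver 3 was the highest of its group and Vps15LKO liver 2 the highest of its own, and the groups did not overlap. The sum was 2296-fold lower in Vps15LKO livers, against 314-fold for Mup3 and 21.8-fold for Mup20. Without Vps15LKO liver 2 these were 7290.4-fold, 952-fold and 39.7-fold. The share of the central copies in the Mup pool was 39.3 ± 8.47% in WT livers and 3.25 ± 1.07% in Vps15LKO livers (SD, n = 3).

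Mup11 had 34511, 29384 and 45954 normalized counts in WT livers and 4.58, 2.43 and 0.707 in Vps15LKO livers, where it was read 10 times in all. The ratio of means was 14229 with a wide counting interval of 7737 to 29671, and was 23335 without Vps15LKO liver 1. Mup7 had 19778, 28745 and 50153 in WT and 5.35, 0.81 and 4.24 in Vps15LKO livers. These were the most abundant central copies, and each of their Vps15LKO livers held 1 to 7 reads.

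Mup22 differed from the other central copies in the order of its livers. It had 14201, 13910 and 8126 normalized counts in WT livers, with liver 3 the lowest, and 1.53, 78.6 and 0 in Vps15LKO livers. Of its 99 Vps15LKO reads most were in liver 2. As no 100-base word of its transcript is its own, its separation from the other copies rests on how the counting step placed shared reads. Mup14 also had most of its Vps15LKO reads in liver 2, with 0.764, 26.7 and 4.24 normalized counts against 7468, 13821 and 23365 in WT livers.

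Among the other central copies, Mup17 had 3690, 4565 and 19317 normalized counts in WT livers and 1.53, 6.48 and 2.83 in Vps15LKO livers. Mup12 had 4011, 5497 and 10853 in WT livers and a single read over the 3 Vps15LKO livers. Both were highest in WT liver 3. Mup1 had 3493, 5119 and 11385 in WT livers and 3.05, 7.29 and 0 in Vps15LKO livers. Mup16 had 1444, 1603 and 8397 in WT livers and 4 reads over the Vps15LKO livers. Mup15 had 570.2, 883 and 4180.2 in WT livers and 5 reads, all in liver 1. For Mup1, Mup15 and Mup16 WT liver 3 was 2.64 to 5.75 times the mean of the other WT livers. Mup19, in contrast, had 3426, 4083 and 4595 in WT livers, the narrowest spread of a central copy, and Mup13 had 3897, 5384 and 6694. Mup1, Mup2, Mup8, Mup10, Mup13, Mup15, Mup16, Mup18 and Mup19 together had WT means between 1216 and 6666 normalized counts and no Vps15LKO liver above 7.29. Mup9 was the least abundant central copy, with 270.5, 271 and 508 in WT livers and 0 reads in each Vps15LKO liver. Taking 3 reads in each Vps15LKO library as the floor, it was at least 153-fold lower.

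The other coding genes outside the central group were also below WT in each Vps15LKO liver. Mup21, the closest relative of Mup3, had 2489, 3348 and 2563 normalized counts in WT livers and 9.16, 14.6 and 4.95 in Vps15LKO livers. Its ratio of means was 293 (212 to 416), near that of Mup3. Without Vps15LKO liver 2 the ratio was 397 for Mup21 and 952 for Mup3. Mup6 had 3633, 3902 and 5368 in WT livers and at most 5 reads in a Vps15LKO liver. Mup5 had 229, 688 and 674 in WT livers and 0 reads in all Vps15LKO livers, which makes it at least 233-fold lower. Mup4, a form known from glands of the nose, had 18.6, 11.2 and 299 in WT livers, nearly all of it in liver 3, and 0 reads in Vps15LKO livers. It was the only coding gene that did not pass the filter on low values.

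Mup-ps22 stood out among the pseudogenes. Although it is 243 bp long and lies on chromosome 11, it had 17945, 17208 and 26928 normalized counts in WT livers, behind only Mup3, Mup11, Mup7 and Mup20 by mean among all members. Per kb of exon it had 85159 ± 22270 (SD, n = 3), second only to Mup3. In Vps15LKO livers it had 7.64, 54.3 and 6.37, and the ratio of means was 909 (736 to 1136), or 2956 without liver 2. Its sequence was closest to Mup20, with 90.1% of 243 bases equal and a longest equal run of 56 bases, and 86.8% were equal to Mup11, with a longest run of 26. The stretch printed above shows how its differences are spread over the sequence. Its counts were 12.8 to 17.5% of the sum of the central copies in WT livers, against 29.4 to 47.4% in Vps15LKO livers, where the sum rests on 19 to 183 reads. Set against Mup20 they ran the other way, at 127, 162 and 69.9% in WT livers and 1.05, 2.95 and 1.91% in Vps15LKO livers. Slc36a3, the next annotated gene on the opposite strand, was at 0 in all 6 livers, and Gm2a on the other side had WT levels of 5193 to 5700 and Vps15LKO levels of 3207 to 4119 normalized counts. From which locus the reads counted on Mup-ps22 came was not tested.

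Mup-ps19 was the next most abundant pseudogene. It had 1863, 1648 and 5511 normalized counts in WT livers and 39.7, 74.6 and 18.4 in Vps15LKO livers, a ratio of 68.0 (58.5 to 79.5) that was 39.7 without WT liver 3 and 103.5 without Vps15LKO liver 2. Of the 100-base words of Mup-ps19 only 23.3% occurred in no other GENCODE transcript, and of those of Mup-ps8 0%. Their counts are thus uncertain, as are those of single central copies, and the interval does not cover this. Mup-ps21 had 265, 204 and 1732 in WT and 2.29, 4.86 and 3.54 in Vps15LKO livers. Mup-ps13, Mup-ps16, Mup-ps18 and Mup-ps20 had WT means of 179 to 241. Part of the exons of Mup-ps16 overlaps those of the transcript Gm13775. Mup-ps8, Mup-ps12, Mup-ps14 and Mup-ps17 reached 20 normalized counts only in WT liver 3, where they had 43.1 to 121. The other 16 stayed below 20 in every liver, and 6 of them (Mup-ps3, Mup-ps5, Mup-ps24, Mup-ps26, Mup-ps28 and Mup-ps29) were listed at 0 in all livers.

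The filter, 20 or more normalized counts in 3 or more livers, was passed by 28 members, 21 coding genes and 7 pseudogenes, and by 15430 genes in all. Of the 28, 28 were called lower by limma (adjusted p under 0.05 together with a change of 1.2-fold or more), with log2 fold changes from -13.46 (Mup11) to -4.55 (Mup20), and 0 were called higher. Over all tested genes 33.0% were called lower and 33.5% higher. The members passed through their WT livers and were selected on this contrast, so nothing is read from that count. The other 21 members, 20 of them pseudogenes, were not tested. In 39 of the 49 members, among them members that were not tested, every Vps15LKO liver lay below every WT liver. The share was 36.8% over the tested genes alone, a different base. The 10 largest falls of all tested genes were all Mup genes, and Mup20 was in place 67.

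WT livers were not alike in their Mup levels. Of the 33 members with at least 20 normalized counts in a WT liver, 29 were highest in WT liver 3, against 32.9% of all tested genes. The exceptions were Mup3 and Mup22, highest in liver 1, and Mup5 and Mup21, highest in liver 2. Mup4, Mup-ps8, Mup-ps12, Mup-ps14 and Mup-ps17 reached 20 only in liver 3, so the cutoff itself fixed their order. The share over all tested genes rests on the other filter, 20 or more in 3 or more livers. Liver 3 was above the mean of livers 1 and 2 by 1.44 times for Mup11, 2.07 for Mup7, 4.68 for Mup17, 7.46 for Mup18 and 20.1 for Mup4. The same liver was the highest for 16 of 17 male-biased liver genes with signal, such as Hsd3b5, a male-specific steroid enzyme, where it was 2.39 times the mean of the other livers, and Cyp4a12a, a male-specific cytochrome P450 (2.28). It was the highest for 0 of 15 female-biased liver genes with signal and the lowest for 12 of them, among them Cyp2b9 (0.137) and Cyp3a41a (0.0828). For 12 hepatocyte markers it was the highest in 3 and the lowest in 5. These orders over 3 livers are a description, with no test.

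**Figure D3:**
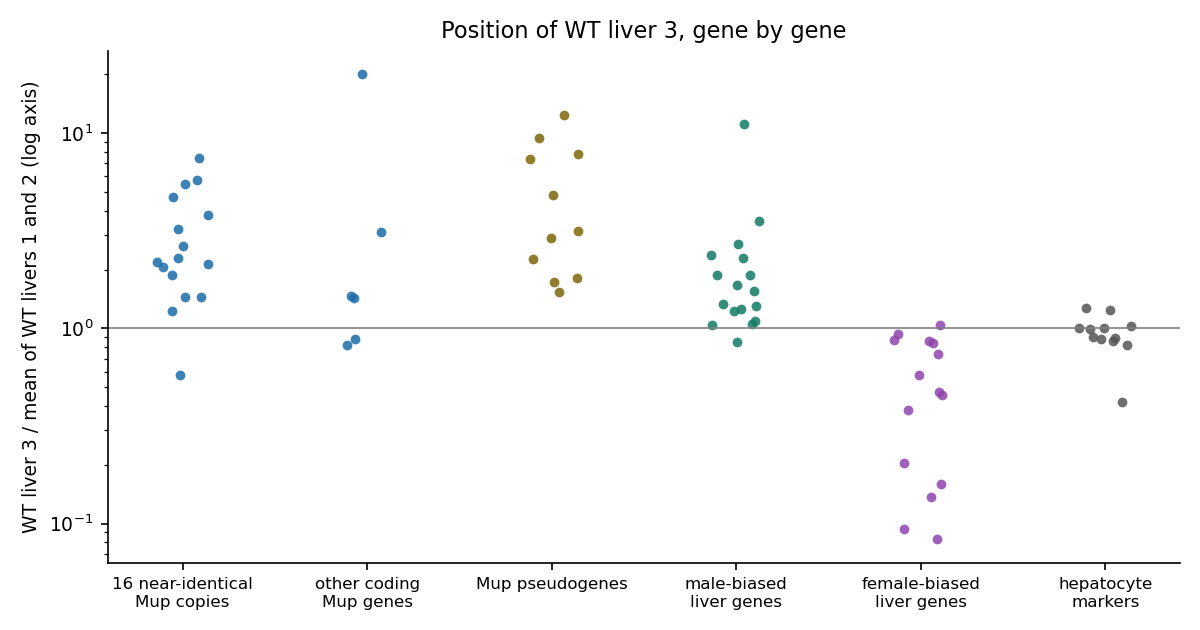
Level in WT liver 3 divided by the mean of WT livers 1 and 2 (log axis), 1 point per gene with at least 20 normalized counts in a WT liver, for the Mup groups, male-biased and female-biased liver genes and hepatocyte markers. Most Mup and male-biased genes lie above 1, female-biased genes lie mostly below 1, and hepatocyte markers lie around 1.

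Vps15LKO livers also kept an order. Of the 21 members with more than 3 reads over the Vps15LKO livers, 18 were highest in liver 2 and 14 were lowest in liver 3. Of all 15430 tested genes 6392 were highest in liver 2 and 6354 lowest in liver 3. The full order liver 3 below liver 1 below liver 2 was found in 13 of the 21, in 10 of 13 male-biased genes with signal, in 12 of 12 hepatocyte markers, in 7 of 9 other lipocalins with signal, in 4 of 5 endothelial and in 3 of 5 macrophage markers, in 11 of 20 regulators, in 8 of 21 female-biased genes, in 2 of 6 stellate cell markers and in 5 of 18 genes around the cluster, against 28.3% of all tested genes. The 5 cholangiocyte markers all had the reverse order, liver 2 below liver 1 below liver 3, against 20.1% of all tested genes. Summed hepatocyte markers were 3371160 to 3827770 normalized counts in WT livers and 1410700, 1665610 and 1140880 in Vps15LKO livers. Of the 12 hepatocyte markers, 9 were called lower and 0 higher, with a median log2 fold change of -1.60. Beside this and the marker lists below, 33.0% of all tested genes were called lower and 33.5% higher. The largest falls were those of Serpina1e (-3.49), a protease inhibitor, Pck1 (-3.03), an enzyme of gluconeogenesis, and Tat (-2.65), an enzyme of tyrosine breakdown. Without WT liver 1 Serpina1e stood at -2.781, behind Pck1 at -2.895. Cholangiocyte markers (Krt19, Krt7, Epcam, Sox9 and Spp1) summed to 662 to 787 in WT and 11426 to 22425 in Vps15LKO livers, and 5 of 5 rose, led by Spp1 (log2 fold change 4.69). Of the stellate cell markers 6 of 6 rose and of the macrophage markers 4 of 5, beside 33.5% called higher over all tested genes. Of the endothelial markers 3 of 5 fell and 2 rose, beside 33.0% lower and 33.5% higher. Of those that fell, Stab2 (0.37) and Clec4g (0.30) turned and Kdr (-0.19) was no longer called when scaled to total reads. The part of the cell make-up in the Mup levels was not tested.

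The genes that carry the growth hormone signal and known regulators of Mup genes were compared next. Of 21 such genes tested, 12 fell and 2 rose, with a median log2 fold change of -0.75 against -0.02 over all tested genes, of which 33.0% were called lower and 33.5% higher. Scaled to total reads, 7 fell and 7 rose, beside 11.1% lower and 66.7% higher over all tested genes. Ghr, the growth hormone receptor, had 12216, 11855 and 11100 normalized counts in WT livers and 1431, 1943 and 1132 in Vps15LKO livers. This was a log2 fold change of -2.998 ± 0.18 (SE; adjusted p = 3.59e-06, limma), and the groups did not overlap. Jak2, the kinase bound to the receptor, rose by a log2 fold change of 0.43 (adjusted p = 0.0164), a call lost without Vps15LKO liver 1 (0.40). Stat5b, the main STAT5 of liver, fell from 1209 ± 90.8 to 728 ± 66.8 (log2 fold change -0.73, adjusted p = 0.000294), but stood at -0.01 when scaled to total reads. Stat5a had log2 fold change -0.04 (adjusted p = 0.817), which was 0.69 when scaled to total reads.

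Targets of the pathway differed among themselves. Igf1, the growth factor that liver secretes on growth hormone, had 13108, 12131 and 15397 normalized counts in WT livers and 3937, 5698 and 2715 in Vps15LKO livers (log2 fold change -1.78, adjusted p = 0.000262, and -0.95 under quantile normalization). Igfals, which binds it in plasma, fell by 2.95 on the log2 scale (adjusted p = 5.28e-06). Socs2, a feedback inhibitor of the receptor, did not pass the test (log2 fold change 0.66, adjusted p = 0.231). Its WT livers had 203, 225 and 828 normalized counts, and without WT liver 3 its log2 fold change was 1.31 and passed, as it did when scaled to total reads (1.39). Cish, a related inhibitor, had log2 fold change 1.16 (adjusted p = 0.0855), which passed without WT liver 1 (1.73), when scaled to total reads (1.885) and with the replicate number as a block (1.16). Cux2, a repressor of male-biased genes found in female liver, rose by 2.26 (adjusted p = 0.000397).

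Among transcription factors of hepatocytes, Cebpa fell by 1.94 on the log2 scale (adjusted p = 2.83e-05) and Hnf4a by 1.38 (adjusted p = 7.43e-05). Under quantile normalization these were -1.06 and -0.34. Bcl6, a repressor that competes with STAT5, spread widely in WT livers (1326, 261 and 2075 normalized counts) and did not pass (log2 fold change -1.11, adjusted p = 0.192). Without WT liver 2 its value was -1.999 and passed. Zhx2, a homeobox factor known to affect Mup levels, stood at 448 ± 40.0 in WT and 403 ± 23.7 in Vps15LKO livers (log2 fold change -0.15, adjusted p = 0.23, and 0.57 when scaled to total reads).

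**Figure D4:**
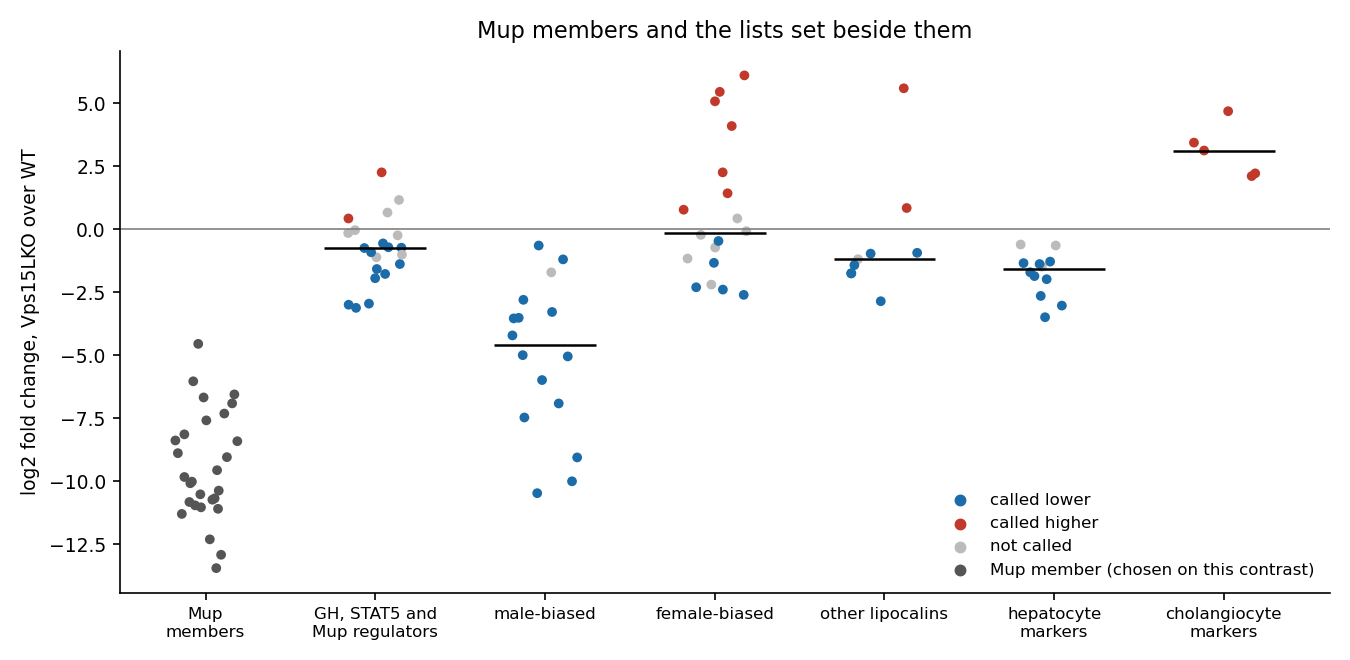
Log2 fold change of Vps15LKO over WT for the 28 Mup members that passed the filter (dark grey, chosen on this contrast) and for the tested genes of 6 lists (blue called lower, red called higher, light grey not called), with a bar at the median of each list. Male-biased genes reach down to -10.48, while the lists of regulators, other lipocalins and hepatocyte markers have medians between -1.60 and -0.75.

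Male-biased liver genes outside the family were called lower in 15 of 16 cases and higher in 0, with a median log2 fold change of -4.61. The largest falls were those of Elovl3, a fatty acid elongase, with 1736 ± 221 normalized counts in WT livers and 1 read over the Vps15LKO livers (log2 fold change -10.48, adjusted p = 8.74e-08), Hsd3b5 (-10.01, adjusted p = 3.28e-07) and Slco1a1, a carrier of organic anions (-9.06, adjusted p = 5.39e-06). Selenbp2 had log2 fold change -1.71 (adjusted p = 0.111). Of 18 female-biased genes 5 fell and 7 rose, with a median of -0.15, beside 33.0% lower and 33.5% higher over all tested genes. Scaled to total reads, 3 fell and 8 rose, beside 11.1% and 66.7%. Cyp2a4, a cytochrome P450, rose from 349 ± 20.7 to 15578 ± 3466 (log2 fold change 5.46, adjusted p = 1.44e-07). Atp6v0d2 also rose (1.43, adjusted p = 0.00525). Hamp2 (-2.61, adjusted p = 6.16e-05), Cyp3a16 (-2.40, adjusted p = 0.00413) and Cyp17a1 (-2.30, adjusted p = 5.29e-05) fell. The lists were written with earlier results of these data known and are no independent evidence of their direction.

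Other secreted lipocalins of liver did not move as one group. Of 9 tested, 6 fell and 2 rose, beside 33.0% lower and 33.5% higher over all tested genes. Their median log2 fold change was -1.19. C8g, a subunit of complement component 8, fell by 2.86 on the log2 scale (adjusted p = 1.52e-05). Orm1, an acute phase carrier, fell by 1.75 (adjusted p = 7.38e-05), as did Rbp4, the plasma carrier of retinol, by 1.75 (adjusted p = 8.47e-05). Under quantile normalization Orm1 stood at -1.01 and Rbp4 at -0.44. Lcn2, an iron-chelate carrier of the acute phase, rose from 304 ± 180.4 to 13542 ± 3764 normalized counts (log2 fold change 5.60, adjusted p = 6.93e-06). Orm2 rose by 0.84 (adjusted p = 0.00821). Obp2a, an odorant-binding lipocalin that was not tested, had 9.28, 35.0 and 18.9 in WT livers and at most 1.62 in a Vps15LKO liver.

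The genes around the cluster were read to see whether the low levels extended beyond the family. Within 500 kb on either side and between the members there were 32 other genes, of which 20 were tested, 10 fell and 6 rose, with a median log2 fold change of -0.31. Scaled to total reads, 5 fell and 10 rose, beside 11.1% and 66.7% of all tested genes. Outside the cluster 18 were tested, of which 8 fell, 6 rose and 4 were not called, beside 33.0% lower and 33.5% higher over all tested genes, and their log2 fold changes ran from -1.44 to 4.19. Snx30, 52.1 kb before Mup4, had log2 fold change 0.47 (adjusted p = 0.0216), a call lost without WT liver 1 (0.42), WT liver 3 (0.37) or Vps15LKO liver 1 (0.38). Zfp37, 38.7 kb after Mup21, had a log2 fold change of 2.08 (adjusted p = 0.0004). Slc31a1, a copper importer 209.9 kb after Mup21, fell by 1.44 (adjusted p = 1.98e-05), and Slc31a2, 112 kb after Mup21, rose by 0.66 (adjusted p = 0.00111). Hdhd3 fell by 1.29 (adjusted p = 0.000264) and Inip rose by 0.62 (adjusted p = 0.00223), a call lost under quantile normalization (0.25).

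Inside the cluster 2 other genes were tested and both fell. Gm13775, a noncoding transcript that shares exon sequence with Mup-ps16, had 256, 196 and 387 normalized counts in WT livers and 1.53, 1.62 and 0.707 in Vps15LKO livers (log2 fold change -6.91, adjusted p = 1.16e-06). Gm12909, an antisense transcript 0.946 kb from Mup3, had 118, 98.7 and 91.7 in WT livers and 3.82, 15.4 and 5.66 in Vps15LKO livers (log2 fold change -3.68, adjusted p = 9.74e-05). Gm13773, a noncoding transcript that overlaps Mup-ps6 and was not tested, had 131, 1.25 and 206 in WT livers and 0 in all Vps15LKO livers. Gm13775 and Mup-ps16 lie on the same strand, as do Gm13773 and Mup-ps6, so reads from shared exon sequence cannot be told apart.

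**Figure D5:**
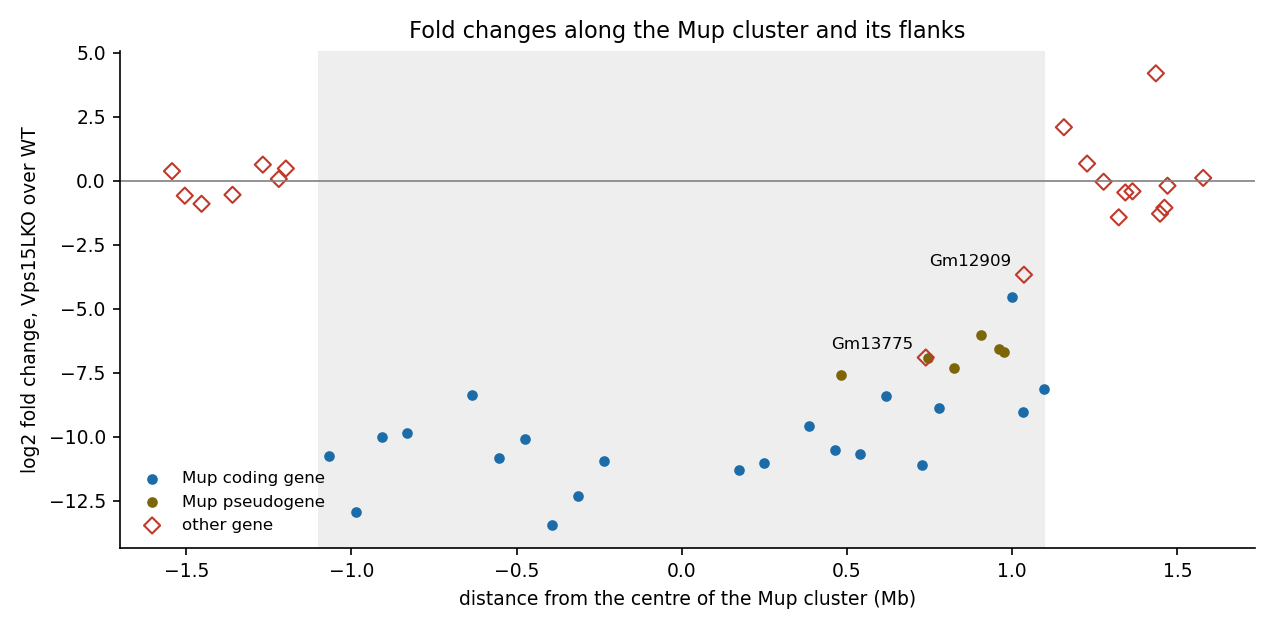
Log2 fold change of Vps15LKO over WT against distance from the centre of the Mup cluster (Mb), with the cluster shaded, for the tested coding Mup genes (blue), Mup pseudogenes on chromosome 4 (brown) and other tested genes (open red diamonds). Both other genes inside the cluster lie below -3, while those on either flank lie between -1.44 and 4.19.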

How the data were processed

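RNA-Seq of 3 WT and 3 Vps15LKO livers was analysed from the deposited table. The authors filtered reads with SOAPnuke, aligned to GRCm38 using HISAT2 and obtained counts with featureCounts, which DESeq2 normalized. Tool versions and the strand and multi-mapping settings are not given in the sources used here. The deposited values are a signal, the reads of each gene over the size factor of its library. In every library 100% of the non-zero values were whole numbers of reads (tolerance 0.1), and these reads were recovered.

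The members and lists were chosen with earlier results of these data known. The test covered genes with 20 or more normalized counts in 3 or more livers (the study's P50 filter), for which log2(normalized count + 1) was compared with limma 3.58.1 (trend) (R 4.3.3). P-values were adjusted by Benjamini-Hochberg over 15430 genes, and calls required an adjusted p under 0.05 together with a change of 1.2-fold or more. The fold is on the log2(value + 1) scale and understates the change of low genes. P-values measure the spread between these livers. All coding members are named, pseudogenes where a liver had at least 20 normalized counts, fixed regulators, and of each list up to 3 called genes with the largest fall and 3 with the largest rise at a mean of at least 100 (of the cell marker lists fewer). Selenbp2, Cyp2b9, Cyp3a41a, Cyp4a12a, Cux2, Zfp37, Gm12909, Gm13773, Obp2a and the genes beside Mup-ps22 fall outside this rule and were named after their values were seen. A gene that the rule names is not reported here. Names and coordinates come from GENCODE M21, which matched 55141 genes. Identity groups used translations of GENCODE coding sequences in place of RefSeq proteins, and promoters came from RefSeq. The fit was tested on simulated data. Chi-square per gene between livers of 1 genotype was 12.9 to 33.3, above sampling noise in each pair. Alternatives were pseudocounts of 0.1 and 10, other filters and scalings, edgeR 4.0.16 and DESeq2 1.42.0 on recovered reads, each liver left out, and the replicate number as a block. Leaving each liver out of the ratios of means was added after seeing the data. Tables were made with Python.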

Additional observations from a re-analysis of the deposited data

How the results depend on the processing

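The fits were repeated under 16 alternatives. Scaling to total reads moved the counts over all genes most. It kept 28 Mup members called lower but called 1712 genes lower and 10299 higher, against 5099 and 5163, with 7 and 7 among the regulators, 5 and 10 around the cluster, and 3 female-biased genes lower. It turned Pik3r4 (0.19), Stat5a (0.69), Zhx2 (0.57), Clec4g (0.30) and Stab2 (0.37). Requiring 20 normalized counts in every liver left 2 Mup members called lower, 7 male-biased genes lower, and 1 regulator and 3 female-biased genes higher, as fewer genes were tested. With each liver left out, and the tested genes kept, 4450 to 5070 genes were called lower and 4648 to 5152 higher, 28 Mup members were called lower each time, and 1 to 3 regulators were called higher (1 without Vps15LKO liver 1). With each liver left out, the log2 ratio of the family sum ran from -8.859 to -7.345, the lowest without Vps15LKO liver 2. Scaled to total reads, the family sum was 139-fold lower, a smaller difference than in any of these. Deviations of same-numbered WT and Vps15LKO livers correlated at -0.00992, -0.0114 and 0.0485, and those of unlike-numbered livers at -0.0633 to 0.0881. With 3 livers per genotype this cannot tell whether livers shared a litter or batch. On recovered reads 5150 genes were lower and 5170 higher by edgeR (quasi-likelihood), and 5003 and 5023 by DESeq2. The calls of Stab2 and Clec4g were also lost under TMM scaling, quantile normalization and 5 of the 6 fits without a liver, and that of Stab2 also by edgeR, by DESeq2, with a pseudocount of 0.1 and with no filter. With the replicate block 4983 genes were called lower and 5065 higher, and Cish was called higher, which made 3 regulators. The log2 fold changes of the tested Mup members ran from -14.86 to -3.82 over the alternatives. Of 422 such values 0 turned and 61 moved in size. The members were chosen for their falls in these same livers, so a turn was hardly possible. These values and the 28 calls under each refit therefore support nothing. Quantile normalization moved other called values by over 1.5 times, to -2.398 for Ghr, -2.419 for Serpina1e, -2.096 for Pck1, -1.742 for Tat, 6.224 for Cyp2a4, 6.295 for Lcn2 and 5.467 for Spp1. With a pseudocount of 10, Elovl3 stood at -7.405, Hsd3b5 at -7.987, Slco1a1 at -8.418 and Gm13775 at -4.629. Over a pseudocount of 0.1, edgeR and DESeq2, Elovl3 ran from -13.04 to -12.19 and Gm13775 from -7.787 to -7.657, and Hsd3b5 was at -10.69 by DESeq2. Slco1a1 was at -9.91 without Vps15LKO liver 2 and Cyp3a16 at -3.151 without WT liver 3. Low Vps15LKO counts limit the folds of single Mup copies.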
